A study of Arabidopsis thaliana with 4 samples.

Results

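The genes described here are nuclear. Most of their products act on RNA inside chloroplasts and mitochondria, or build and assemble the chloroplast NADH dehydrogenase-like (NDH) complex. Membership went by a naming rule, which was set with earlier results of these data known. The annotation symbol, case ignored, had to begin with OTP, CRR (but not CRRSP), MEF, SLO, MORF, MTERF, PNSB, PNSL, NDH, HCF or PPR. The gene also had to be nuclear and to have a probe set of its own. This gave 21 members among 13217 nuclear genes with such a probe set, and each member had a single one. RefSeq lists 75 nuclear protein-coding genes whose symbols fit the rule. The other 54, among them the 5 MORF, 5 PNSB and 5 PNSL genes, had no named probe set of their own and are not analysed here. SLOMO fits by its letters only, since it encodes an F-box protein and no organelle RNA factor. HCF101, a chloroplast protein needed for photosystem I, also falls outside these functions. The counts below include SLOMO and HCF101.

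RNA came from inflorescence tips of Arabidopsis thaliana at growth stage 6.10. The mutant was tmm-1, a line altered in the stomatal patterning gene TMM, with 2 Affymetrix ATH1 arrays. It was compared with Col-3 gl1, a line with few leaf hairs, also with 2 arrays. The sample titles write the control as Col1g11, the source field as Col-3 gl1, and the labels leave unsaid whether gl1 is also present in the mutant line. Both lines were grown at 22 °C and 70% humidity in days of 16 h, under light of 125 µmol m-2 s-1. Each array held 1 pool of tissue, and the labels do not tie pools to separate plants. The p-values therefore rest on how far pools differ from each other, a spread that may be technical. They take that spread mostly from all probe sets of like brightness, and less from a member's own 2 pools.

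Chloroplast and mitochondrial transcripts depend on a large set of nuclear-encoded proteins, most of them pentatricopeptide repeat (PPR) proteins, which bind short RNA stretches base by base. Many PPR proteins direct the change of single cytidines to uridines (RNA editing) or the removal of introns. The NDH complex passes electrons from ferredoxin back to plastoquinone in cyclic electron flow around photosystem I. Its subunits come from both the plastid and the nuclear genome, and loss of a single editing factor can leave a plant without a working complex. The crr mutants (chlororespiratory reduction) were found through the loss of NDH activity, and the otp mutants (organelle transcript processing) through defects in organelle RNA. The arrays report transcript signals, and neither editing nor splicing was measured.

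Signals are MAS5 values in array units, on a common scale with a 2% trimmed mean of 100 on each array. The array tmm-1 replicate 2 stood apart at its dim end, where 10% of its signals were under 3.06, a limit that lay between 1.54 and 1.60 on each other array. Its correlations with the other arrays, on log2 of signal plus 10, were 0.9684 to 0.9725, against 0.98 to 0.9824 among the rest. The highest signal of any Bacillus control probe set, 21.2, served as a yardstick for background. Ratios of 3′ to 5′ signal for an actin control, a sign of RNA integrity, were 12.5 and 8.67 in tmm-1, against 16.4 and 11.3 in Col-3 gl1. A different actin control gave 2.29 and 2.47 in tmm-1, against 2.25 and 2.39 in Col-3 gl1, and the lines overlapped in both. The ratios of these controls lay far apart on every array, so they leave RNA integrity unsettled. Of 21 floral marker genes, 3 had a named probe set, and UFO and CLV3 among them stayed under the yardstick on all 4 arrays, so the tissue label could hardly be checked by these markers. Of 31 markers of photosynthetic tissue, 4 had one. Their summed signals were 5785 and 5515 in tmm-1, against 6661 and 5850 in Col-3 gl1, lower on both tmm-1 arrays. LHCB4.1 carried the largest part of this gap, with means of 2003 in tmm-1 and 2424 in Col-3 gl1. LHCB4.2 was at 1834 and 1864. TMM itself, whose level would check the line labels, is not analysed here.

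None of the testable members differed between the lines beyond the threshold. Of the 21 members, 19 passed the filter of a mean signal of at least 10 over the 4 arrays. Limma called 0 of these 19 at an adjusted p below 0.05, against 0.613% of all 16960 probe sets tested. The unadjusted p was below 0.05 for 2 members, OTP81 and NdhS, or 10.5% of the 19 against 8.81% of all probe sets. The smallest adjusted p was 0.475, for OTP81. The log2 differences of tmm-1 minus Col-3 gl1, computed on signal plus 10, ran from -0.81 for OTP81 to 0.22 for CRR42. Their median was -0.11, beside 0.03 over all probe sets tested, and 13 of the 19 (68.4%) were below 0, as were 45% of all probe sets.

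The 95% intervals limit what size of change in signal plus 10 these arrays leave room for. For 17 of the 19 members (89.5%) the interval lay within a 2-fold change of signal plus 10 either way, as it did for 83.2% of all probe sets. The exceptions were OTP81 and OTP85, whose intervals reached below a log2 difference of -1. In no member did the upper bound exceed 0.73, the bound of OTP70. The added 10 shrinks changes in dim members. The intervals of OTP43, MEF8S, OTP87 and CRR28 thus leave room for more than a 2-fold fall of the signal itself. OTP43 also lay under the Bacillus yardstick on every array, so its interval does not bound a change of its transcript. The intervals of all members rest mostly on the spread of all probe sets of like brightness and less on a member's own 2 pools.

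**Figure D1:**
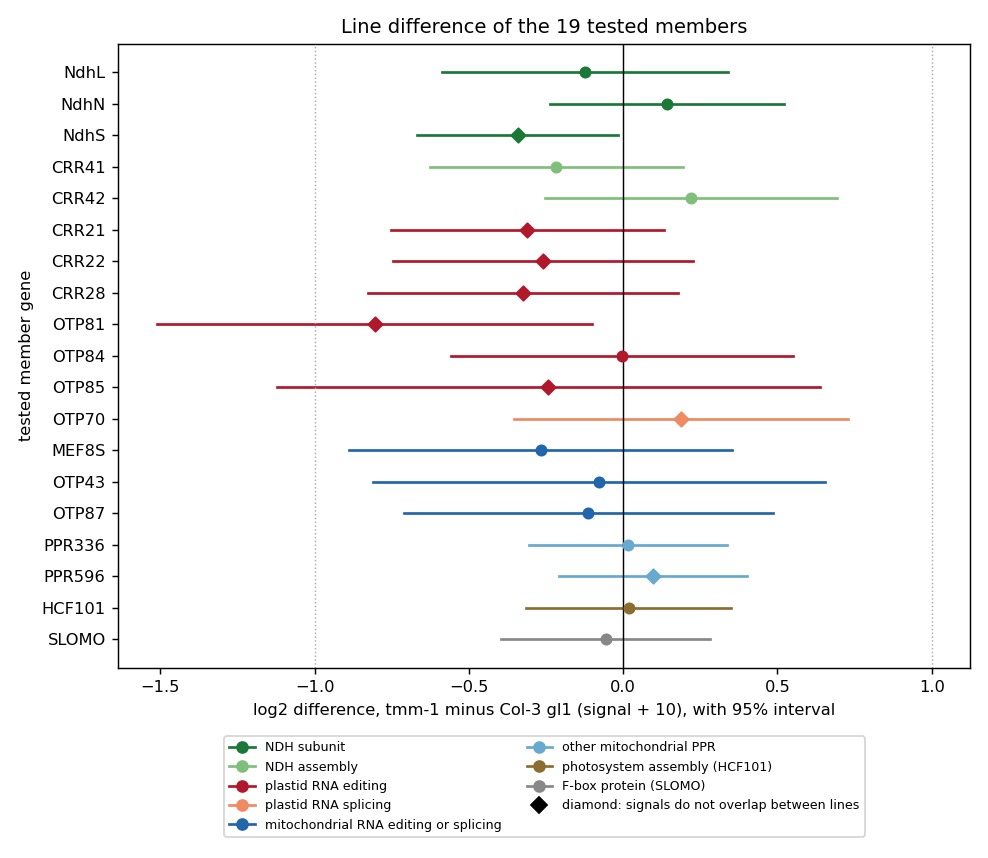
Log2 difference of each of the 19 tested members, tmm-1 minus Col-3 gl1 on signal plus 10 (horizontal axis), with its 95% interval from limma. Colours mark roles, and diamonds mark members whose signals do not overlap between lines. Dotted lines mark a 2-fold change of signal plus 10. All 6 plastid RNA editing members lie at or left of 0, from -0.81 for OTP81 to 0.00 for OTP84, and only the intervals of OTP81 and NdhS leave out 0.

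Among the NDH subunits, NdhS (AT4G23890, also CRR31) provides the site where ferredoxin docks on the complex. NdhS had signals of 175 and 199 in tmm-1, against 227 and 250 in Col-3 gl1. Both tmm-1 signals lay under both control signals, and the gap between the lines was larger than that between the pools of either. Its log2 difference was -0.34 ± 0.16 (SE, 2 arrays per line; 95% interval -0.67 to -0.02), with an unadjusted p of 0.0409 and an adjusted p of 0.538 in limma. Probe sets with a smaller p made up 7.56% of all those tested, so a p of this size was not rare on these arrays. Leaving out tmm-1 replicate 1 gave -0.25, and leaving out tmm-1 replicate 2 gave -0.43.

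NdhL (AT1G70760, also CRR23), a membrane subunit tied to the stromal arm, had 41.8 and 61.2 in tmm-1 and 68.3 and 46.0 in Col-3 gl1. The lines overlapped, and the pools of one line differed as much as 0.48 on the log2 scale, against a difference between lines of -0.12 ± 0.23 (SE). NdhN (AT5G58260), a subunit of the stromal arm, had 82.7 and 103 in tmm-1 and 85.9 and 80.0 in Col-3 gl1, which also overlapped (0.14 ± 0.18). The 3 subunits thus had no common direction. Summed over them, the array signals were 299 and 363 in tmm-1, against 381 and 376 in Col-3 gl1, a gap carried mostly by NdhS.

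CRR41 (AT1G51100) and CRR42 (AT5G20935) are stromal proteins needed to assemble the arm of the complex that faces the stroma, and neither is part of the finished complex. CRR41 had 71.5 and 52.4 in tmm-1 and 70.1 and 75.9 in Col-3 gl1, a log2 difference of -0.22 ± 0.20. CRR42 had 52.1 and 41.4 in tmm-1 and 42.8 and 34.6 in Col-3 gl1, a difference of 0.22 ± 0.23. In both the signals overlapped between lines. The sizes hung on single arrays: with one array left out in turn, CRR41 ran from -0.41 to -0.025 and CRR42 from 0.084 to 0.36, and without tmm-1 replicate 2 they stood at -0.025 and 0.36.

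**Figure D2:**
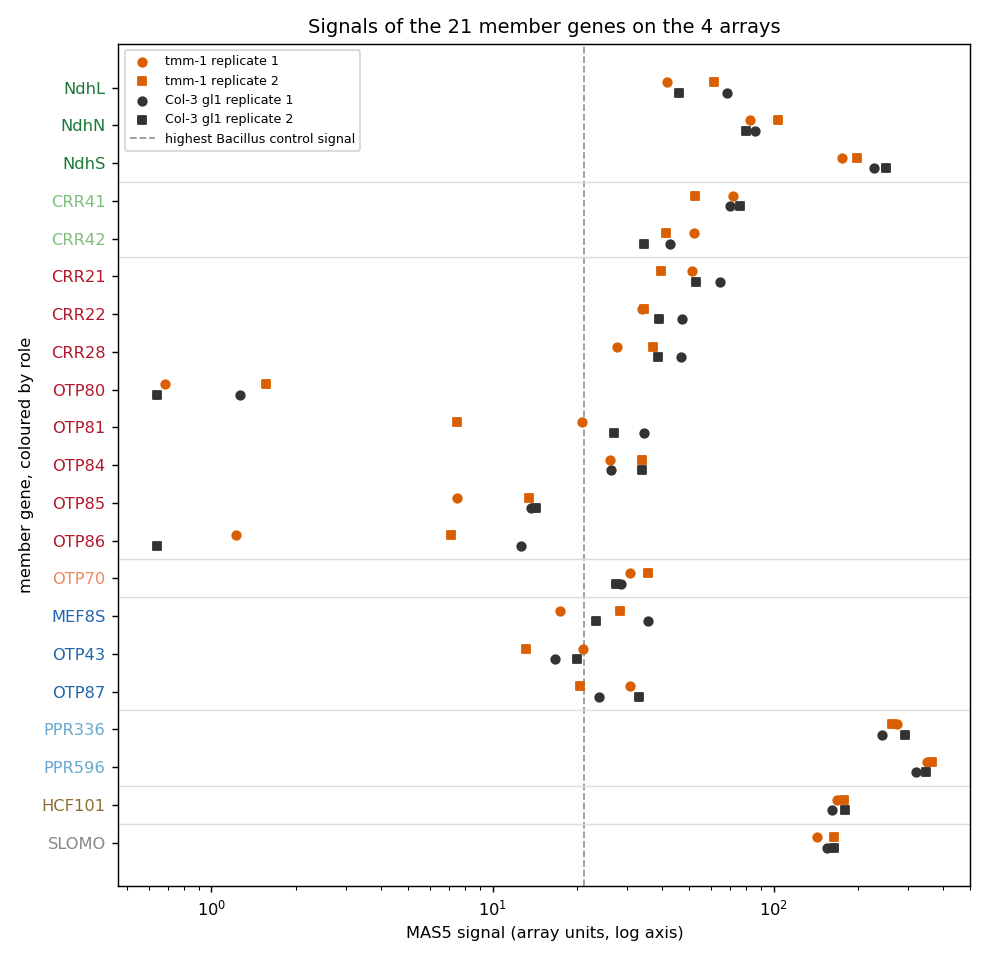
MAS5 signals of the 21 members on each array (log axis), grouped and coloured by role, with tmm-1 in orange above Col-3 gl1 in black; circles are replicate 1, squares replicate 2, and the dashed line is the highest Bacillus control signal, 21.2. CRR21, CRR22 and CRR28 show both tmm-1 points left of both control points, while OTP80 and OTP86 lie under the dashed line on all 4 arrays.

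The plastid RNA editing factors formed the largest role group, with 8 members, and those that could be tested lay on one side with all 4 arrays used. Of the 6 that passed the filter, 6 had a log2 difference below 0, that of OTP84 at -0.0039, with a median of -0.29. In 5 of them (83.3%) both tmm-1 signals lay under both control signals. Over all probe sets tested, 16.8% showed that order. This summary was chosen after seeing the data, so the contrast describes these arrays and is no test of a joint fall. Among the 5, OTP81 had both tmm-1 signals under the Bacillus yardstick, and OTP85 lay under it on every array. The order of OTP85 rested on 13.4 in tmm-1 replicate 2 against 13.7 in control replicate 1. The settings below that leave out one array reuse the same data and add no independent check. Limma called 0 of the 6, and 1, OTP81, had an unadjusted p below 0.05. The per-array medians of their log2 signals were 5.21 and 5.47 in tmm-1, against 5.65 and 5.53 in Col-3 gl1. Without tmm-1 replicate 2, 6 of the 6 lay under both controls, against 33.5% of all probe sets, and the median was -0.34. Without control replicate 1 the median was -0.20, with 6 of 6 under the remaining control, against 29.4% of all. Without tmm-1 replicate 1 the count was 5 of 6, against 32.5% of all, with a median of -0.20, and without control replicate 2 it was 5 of 6, against 30% of all, with a median of -0.40. In these last 2 settings OTP84 lay above 0, so the group was not on one side. With a minimum signal of 30, which keeps 4 of the factors, 3 of the 4 had that order, against 18.6% of all.

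CRR21 (AT5G55740) edits a site in ndhD, the plastid gene of an NDH membrane subunit. It had signals of 51.2 and 39.7 in tmm-1, against 64.2 and 53.0 in Col-3 gl1. The lines did not overlap, though 51.2 in tmm-1 and 53.0 in the control were close. The log2 difference was -0.31 ± 0.21 (adjusted p = 0.741 in limma), hardly larger than the gap of 0.30 between the tmm-1 pools.

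CRR22 (AT1G11290) edits sites in ndhB, ndhD and rpoB, the last of these encoding a subunit of the plastid RNA polymerase. It had 33.9 and 34.6 in tmm-1, against 47.1 and 39.2 in Col-3 gl1, so the tmm-1 pools were nearly equal and the control pools were both higher. Its difference was -0.26 ± 0.24. CRR28 (AT1G59720) edits further sites in ndhB and ndhD. It had 27.6 and 37.2 in tmm-1, against 46.9 and 38.8 in Col-3 gl1, with tmm-1 replicate 2 only just under control replicate 2, and a difference of -0.32 ± 0.24. The 95% intervals of the 3 CRR editing factors all included 0, and they reached down to -0.75, -0.75 and -0.83 in the order named. With one array left out in turn, the difference of CRR21 ran from -0.46 to -0.16, that of CRR22 from -0.37 to -0.15 and that of CRR28 from -0.49 to -0.16. Leaving out tmm-1 replicate 2 gave -0.16 for CRR21, -0.27 for CRR22 and -0.49 for CRR28.

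OTP81 (AT2G29760, also known as QED1), which edits several plastid transcripts, had the largest difference of all members. Its signals were 20.8 and 7.50 in tmm-1, against 34.5 and 27.0 in Col-3 gl1. The lines did not overlap, but both tmm-1 signals were under the Bacillus yardstick of 21.2, and the gap between the tmm-1 pools, 0.81 on the log2 scale, was as large as the difference between lines. That difference was -0.81 ± 0.34 (95% interval -1.51 to -0.10, unadjusted p = 0.0268, adjusted p = 0.475 in limma). Its size followed the pseudocount, at -1.21 with 1 and -0.60 with 20. Leaving out tmm-1 replicate 2 gave -0.40. Leaving out tmm-1 replicate 1 gave -1.21, a value that rests on the signal of 7.50 in tmm-1 replicate 2 alone, the array that stood apart.

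OTP84 (AT3G57430), an editing factor for ndhB, ndhF and psbZ, gave the smallest difference of the tested members, with 26.2 and 34.0 in tmm-1 and 26.4 and 34.0 in Col-3 gl1. Its log2 difference was 0.00 ± 0.27 (95% interval -0.56 to 0.55), and it turned to 0.14 without tmm-1 replicate 1 and to 0.13 without control replicate 2. OTP85 (AT2G02980), an editing factor for ndhD, had 7.50 and 13.4 in tmm-1 and 13.7 and 14.3 in Col-3 gl1, all under the yardstick, so its order carries little information (-0.24 ± 0.43, or -0.45 to -0.031 with one array left out). OTP80 (AT5G59200) and OTP86 (AT3G63370), which edit the ribosomal protein transcripts rpl23 and rps14, did not pass the signal filter. OTP80 had 0.684 and 1.56 in tmm-1 and 1.26 and 0.640 in Col-3 gl1, and OTP86 had 1.23 and 7.13 in tmm-1 and 12.6 and 0.640 in Col-3 gl1. In both genes the lines overlapped under the yardstick, which leaves their levels unmeasured in either line.

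The 4 testable markers of photosynthetic tissue lay on the same side as the editing factors. Their log2 differences ran from -0.28 to -0.04, with a median of -0.10, and 45% of all probe sets also lay below 0. In 2 of the 4 both tmm-1 signals lay under both control signals, an order found in 16.8% of all probe sets. Limma called 0 of the 4. The 3 testable genes of cyclic electron flow, PIFI, PGRL1B and NDC1, lay above 0, at 0.06 to 0.17. In bulk tissue, fewer green cells and less RNA per cell cannot be told apart, and the part of tissue makeup in the editing factors' values was not tested.

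OTP70 (AT4G25270), a PPR protein needed to splice the plastid rpoC1 transcript, lay on the other side. It had 30.9 and 35.6 in tmm-1, against 28.5 and 27.4 in Col-3 gl1, and its difference was 0.19 ± 0.26 (adjusted p = 0.901 in limma). The lines did not overlap, and the difference exceeded the gap between the pools of each line. It and PPR596 were the 2 members (10.5%) whose tmm-1 signals lay over both control signals, an order seen in 21.5% of all probe sets.

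In the mitochondrial editing and splicing members the lines overlapped. OTP43 (AT1G74900), which is needed to splice nad1 of respiratory complex I, had 21.0 and 13.2 in tmm-1 and 16.7 and 20.01 in Col-3 gl1, all under the yardstick (-0.08 ± 0.36). OTP87 (AT1G74600), which edits nad7 and atp1, had 30.8 and 20.5 in tmm-1 and 23.8 and 33.1 in Col-3 gl1 (-0.11 ± 0.29). MEF8S (AT4G32450), a close relative of the mitochondrial editing factor MEF8, had 17.4 and 28.5 in tmm-1 and 35.7 and 23.4 in Col-3 gl1 (-0.27 ± 0.30). In each of these 3 genes the signals overlapped and the larger gap between pools, 0.42 to 0.49 on the log2 scale, exceeded the difference between lines. With one array left out, MEF8S ran from -0.51 to -0.021, at -0.51 without tmm-1 replicate 2, and OTP43 and OTP87 took either sign.

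PPR336 (AT1G61870), a small mitochondrial PPR protein found with ribosomes, had 275 and 264 in tmm-1 and 242 and 293 in Col-3 gl1. The tmm-1 signals lay inside the range of the control, and the difference was 0.02 ± 0.16. PPR596 (AT1G80270), which affects partial editing of mitochondrial rps3, had 352 and 365 in tmm-1, against 320 and 349 in Col-3 gl1. The lines did not overlap, with a difference of 0.10 ± 0.15 (95% interval -0.21 to 0.40) that was smaller than the gap between the control pools, 0.12. PPR596 lies near the mutated gene, with 20 protein-coding genes between it and TMM in the RefSeq annotation.

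HCF101 (AT3G24430), a chloroplast iron-sulfur scaffold protein needed for photosystem I, had 167 and 178 in tmm-1 and 161 and 179 in Col-3 gl1. Its difference of 0.02 ± 0.16 was smaller than the gap of 0.15 between the control pools, and its interval, -0.31 to 0.35, was among the narrower ones. SLOMO (AT4G33210), an F-box protein that promotes the start of lateral organs at the shoot meristem, had 142 and 164 in tmm-1 and 154 and 164 in Col-3 gl1 (-0.06 ± 0.16). Without SLOMO the median over the other 18 tested members was -0.12.

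**Figure D3:**
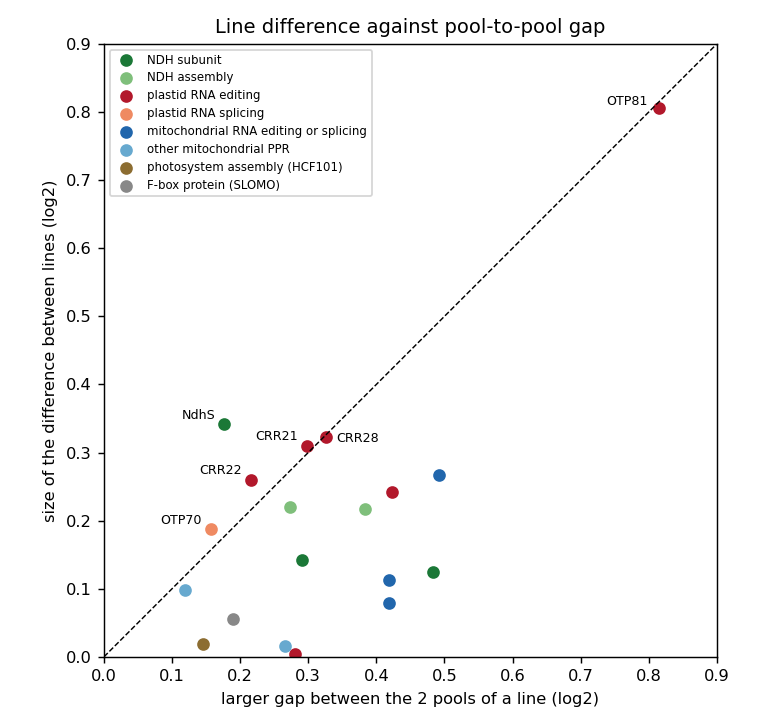
Size of the log2 difference between lines (vertical axis) against the larger gap between the 2 pools of a line (horizontal axis) for the 19 tested members, both on log2 of signal plus 10, with the dashed line where they are equal. NdhS, CRR21, CRR22 and OTP70 lie above the line, and OTP81 and CRR28 lie just under it.

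Compared member by member with the spread between pools, the difference between lines was the larger in 4 of 19 members (21.1%), namely NdhS, CRR21, CRR22 and OTP70. The share over all probe sets tested was 25.4%, so the members' share was near the background. The median gap between pools was 0.29 in tmm-1 and 0.22 in Col-3 gl1 for the members, beside 0.22 and 0.19 for all probe sets. Counting both directions, 8 of 19 members (42.1%) had signals that did not overlap between lines, against 38.3% of all probe sets. By direction, tmm-1 lay under the control in 6 members (31.6%, against 16.8% of all), 5 of them the plastid editing factors and the other NdhS, and over it in 2 (10.5%, against 21.5%).

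**Figure D4:**
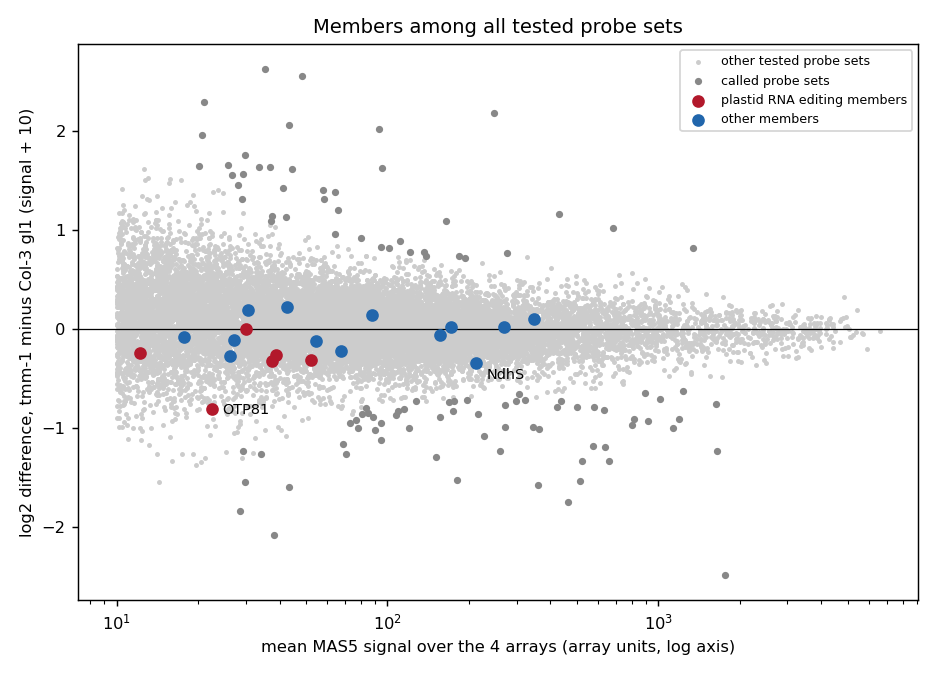
Log2 difference, tmm-1 minus Col-3 gl1 on signal plus 10, against mean MAS5 signal over the 4 arrays (log axis) for all 16960 tested probe sets (light grey), the 104 called ones (dark grey) and the 19 tested members (red for plastid RNA editing, blue for the others). The members lie within the cloud of uncalled probe sets at their brightness, OTP81 and NdhS towards its lower edge.

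Other nuclear genes of the same pathways also gave no calls. Of 76 listed symbols of organelle RNA factors outside the naming rule, 3 had a named probe set, and limma called 0 of them. LPA66 (AT5G48910), a PPR editing factor for the plastid psbF transcript, had 63.6 and 95.7 in tmm-1, against 54.1 and 51.1 in Col-3 gl1. Its signals did not overlap, on the side opposite to the 5 editing members (0.50 ± 0.21, unadjusted p = 0.0244, adjusted p = 0.458). The splicing factors CAF1 and CFM3A were at 0.09 ± 0.19 and 0.02 ± 0.19. Of 18 listed genes of cyclic electron flow, PIFI, PGRL1B and NDC1 had a probe set, with log2 differences of 0.06 to 0.17, 0 called and 0 at an unadjusted p below 0.05. Genes of the listed organelle RNA polymerases and sigma factors are not analysed here.

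The plastid-encoded partners of the nuclear NDH genes were on the array for 10 ndh genes. Limma called 0 of them and 0 had an unadjusted p below 0.05. Their log2 differences ran from -0.26 for ndhJ to 0.30 for ndhF, with a median of 0.07. Of the 10, 8 were above 0 and 2 below it, while 45% of all probe sets lay below 0. The tmm-1 pools lay far apart in ndhE (120 and 299) and ndhG (68.5 and 196). The transcript of ndhD, which CRR21, CRR22, CRR28 and OTP85 edit, had 1520 and 1667 in tmm-1 and 1403 and 1734 in Col-3 gl1 (0.03 ± 0.14). That of rpoB, edited by CRR22, had 33.8 and 56.8 in tmm-1, against 61.6 and 61.9 in Col-3 gl1 (-0.41 ± 0.22, adjusted p = 0.639). Transcripts of psbZ and ndhF, edited by OTP84, were at 0.08 ± 0.14 and 0.30 ± 0.26, rps14, edited by OTP86, at 0.26 ± 0.24, and rpoC1, spliced with OTP70, at 0.04 ± 0.14. Labelling in the one-cycle protocol starts from poly(A) tails, which plant organelle messenger RNAs mostly lack, so these signals are a poor measure of their abundance.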

How the data were processed

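The authors deposited intensity values, which are linear-scale signals made with MAS5 in GCOS, per the submitters' processing notes. Global scaling removes any overall difference in RNA content. The values were not scaled again, and detection calls were not used. The number of arrays limits the precision.

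Of 22810 probe sets, 64 array controls were left out. Probe sets with a mean signal of at least 10 were tested, after adding a pseudocount of 10 and taking log2, with limma 3.58.1 in R 4.3.3 (lmFit, eBayes with an intensity trend, two-sided, Benjamini-Hochberg over all 16960, called below 0.05). SE and 95% intervals are the moderated ones. An exact permutation test of 2 against 2 arrays cannot go below p = 0.33, so it was not used. The model was also run on simulated data drawn from its own fitted variances, which cannot show whether those variances suit the real arrays. Symbols came from the platform annotation, joined by Entrez ID to RefSeq TAIR10.1: 13513 probe sets had 1 symbol (13436 matched RefSeq), 503 several and 8794 none.

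The pool number served as replicate number. The members and lists were chosen with earlier results of these data known. Every called member and every tested NDH subunit and assembly factor was to be named. For each other role the brightest, the 2 highest and the 2 lowest differences were to be named, and the remaining members are given for completeness. The editing targets were chosen after values were seen. Of the marker lists, EMS1 of the floral list was at -0.05 ± 0.37. The late pollen list had 2 of 11 genes tested, at -0.38 and 0.27, and the root list 1 of 14, at 0.90 ± 0.50, none called. The root value, that of EXPA18, rested on a signal of 46.3 in tmm-1 replicate 2. On the other arrays EXPA18 was at 4.21 to 8.27, under the yardstick. Alternatives were another pseudocount, normalization, filter, variance model, threshold or a block for the pool number, and leaving out single arrays.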

Additional observations from a re-analysis of the deposited data

How the results depend on the processing

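Limma called 0 members in each of the 10 other settings and with 3 of the 4 arrays left out in turn, and 1, OTP81, without tmm-1 replicate 1 (0 to 1 over the 4). The 104 calls over all probe sets (41 higher, 63 lower in tmm-1) became 17 without a signal filter, 0 without the intensity trend (1293 at an unadjusted p below 0.05), 162 at an adjusted p below 0.1, and 80 to 572 with an array left out, each fit taking the lone array to vary as the paired ones do; tmm-1 replicate 1 was the array left out for 572. That setting gave 293 higher and 279 lower, scaling to the median 31 and 80, and quantile normalization 22 and 48. The cause of these shifts was not tested. A replicate block for the pool number gave 191 calls, 0 of them members, and no member's call changed; same-numbered pools deviated with a correlation of 0.032 across probe sets, so the numbers were taken as labels only. The members' median difference was -0.22 to -0.03 in other settings and -0.14 to -0.01 with an array left out. For the plastid editing factors the median was -0.38 to -0.24 and -0.40 to -0.20. These editing summaries were chosen after seeing the data. Their count with tmm-1 under the control was 5 in other settings, except 3 with a minimum signal of 30, where 2 of the 6 are not tested, and 5 to 6 with an array left out. Of 242 member values under other settings, 16 turned sign, in 8 members, none of them called. With scaling to the median HCF101 was at -0.067 and PPR336 at -0.071. With an array left out, the ranges that crossed 0 were -0.37 to 0.12 for NdhL, -0.0031 to 0.29 for NdhN, -0.29 to 0.13 for OTP43, -0.32 to 0.10 for OTP87, -0.14 to 0.14 for OTP84, -0.12 to 0.15 for PPR336, -0.054 to 0.091 for HCF101 and -0.15 to 0.039 for SLOMO. Averaging several probe sets of a gene was not run, since each member had 1. Signals under the Bacillus yardstick limit 7 members: OTP43, OTP80, OTP85 and OTP86 on all 4 arrays, OTP81 on both of tmm-1, and MEF8S and OTP87 on 1 array each.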
